A study of Rattus norvegicus with 8 samples.

Results

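The genes described here build the machinery that brings proteins into the endoplasmic reticulum (ER), folds them there and removes those that fail to fold. The set has 40 rat genes in 5 roles, namely translocon and signal peptidase, chaperones, disulfide enzymes, degradation genes and regulators of the unfolded protein response. Members were named by symbol, and each array probe whose accession maps to 1 of these symbols in RefSeq was taken. Of the 40 genes, 36 had a probe, with 42 probes between them, and all 36 passed the filter on dim probes. They stand among 15200 tested genes and features. Sec62, Manf, Edem1 and Derl2 had no matched probe and were not analysed here.

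Liver of adult male Sprague-Dawley rats was profiled after 28 days on a control diet or on a diet with 50 mg of potassium perfluorooctanesulfonate (PFOS) per kg, eaten freely. Each group had 4 rats and 1 array per rat. PFOS is a persistent fluorinated surfactant that accumulates in liver. On every array the liver RNA carried the dye Cy5 and a universal rat reference RNA the dye Cy3, so a log2 ratio is the liver level against that common reference. The labels give no other dose, time or sex for these arrays. Samples are whole liver, where fewer cells of a type and less RNA per cell cannot be told apart.

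Secreted and membrane proteins enter the ER through the Sec61 channel while they are being made, and signal peptidase removes their leader. Inside, BiP (Hspa5) and its partner proteins hold unfolded chains, the protein disulfide isomerases form and rearrange disulfide bonds, and chains that fail are sent back to the cytosol for degradation through the Sel1l and Syvn1 complex. Unfolded protein is sensed by Ern1, Atf6 and Eif2ak3, and the factors Xbp1 and cleaved Atf6 switch on many of these genes through the ER stress response elements in their promoters. Hepatocytes carry a heavy load of this work because they secrete most plasma proteins.

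The ER stress response element (ERSE) was searched as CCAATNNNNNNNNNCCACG and its relative ERSE-II as ATTGGNCCACG, on both strands, in the window from 250 bases before to 50 bases from each RefSeq gene start (GRCr8). The 4 promoters printed below belong to both called co-chaperones with a match, to BiP and to Xbp1, the member with the highest rise in value. Each runs from 160 bases before the start to the start base itself, 5′ to 3′ in the direction of the gene, with the match in capitals.
Dnajc3 promoter (chr15:102432507-102432667, plus strand): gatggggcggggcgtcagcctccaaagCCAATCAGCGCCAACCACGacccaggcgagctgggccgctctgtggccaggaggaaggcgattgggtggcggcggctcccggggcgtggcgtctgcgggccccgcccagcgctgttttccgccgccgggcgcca
Dnajb11 promoter (chr11:91672800-91672960, minus strand): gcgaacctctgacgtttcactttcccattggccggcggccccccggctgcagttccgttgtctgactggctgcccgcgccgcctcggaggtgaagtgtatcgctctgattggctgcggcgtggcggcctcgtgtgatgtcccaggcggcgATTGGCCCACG
Hspa5 promoter (chr3:38452856-38453016, plus strand): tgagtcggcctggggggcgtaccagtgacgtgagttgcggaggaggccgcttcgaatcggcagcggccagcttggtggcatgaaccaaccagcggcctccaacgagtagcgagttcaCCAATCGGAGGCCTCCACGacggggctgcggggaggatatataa
Xbp1 promoter (chr14:84604463-84604623, plus strand): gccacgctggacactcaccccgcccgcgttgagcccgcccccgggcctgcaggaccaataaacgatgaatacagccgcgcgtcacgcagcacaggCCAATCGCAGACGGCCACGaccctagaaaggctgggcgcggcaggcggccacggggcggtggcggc

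In these windows the match lies 133 to 115 bases before the start in Dnajc3, 43 to 25 in Hspa5 and 65 to 47 in Xbp1. The Dnajb11 match ends on the start base. The matches of the other members are given on the strand that holds them, with the fixed letters in capitals and the free letters in lower case, to show how far the spacer varies.
Hsp90b1 ERSE (chr7:23012451-23012469, minus strand): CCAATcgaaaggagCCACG
Hsp90b1 ERSE (chr7:23012347-23012365, plus strand): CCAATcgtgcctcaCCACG
Creld2 ERSE (chr7:121789239-121789257, minus strand): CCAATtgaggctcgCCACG
Calr ERSE (chr19:40213135-40213153, minus strand): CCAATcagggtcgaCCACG
Canx ERSE (chr10:35158069-35158087, minus strand): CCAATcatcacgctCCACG
Ero1b ERSE (chr17:92941458-92941476, minus strand): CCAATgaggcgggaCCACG
Hyou1 ERSE-II (chr8:53602794-53602804, minus strand): ATTGGgCCACG
Hyou1 ERSE-II (chr8:53602694-53602704, minus strand): ATTGGcCCACG
Herpud1 ERSE-II (chr19:10614821-10614831, minus strand): ATTGGgCCACG

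An entry in the promoter table was found for 32 of the 40 members. Of these, 8 held an ERSE, 3 others held an ERSE-II, and 11 (34.4%) held either. Over all 33469 promoters of the table, 22 held an ERSE (0.0657%), 17 an ERSE-II (0.0508%) and 39 either (0.117%). These elements were defined in promoters of genes such as Hspa5, so the matches describe the set and are not an independent finding. A match is a description of letters and not a bound site.

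**Figure D1:**
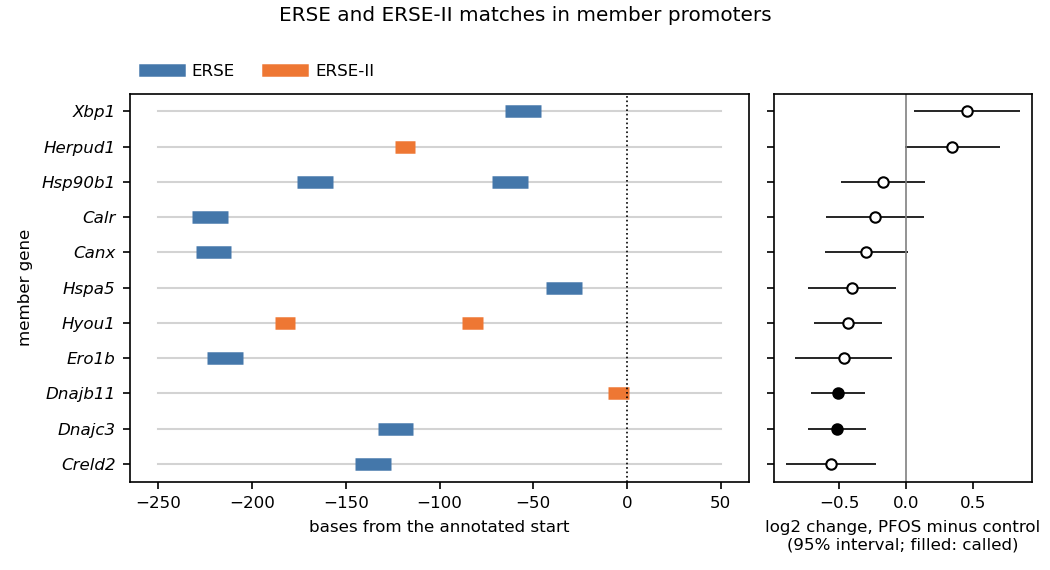
Positions of ERSE and ERSE-II matches in the promoters of the 11 members that hold one, in bases from the gene start (x axis), 1 line per member. The matches spread over the window, from 232 bases before the start in Calr to the start base in Dnajb11.

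The members that fell were 4 folding genes and 1 degradation gene, and no gene of the entry channel was called. With PFOS, 5 members fell and none rose by limma on the log2 ratio with adjusted p under 0.05: the co-chaperones Dnajb11, Dnajc3 and Sdf2l1, the disulfide isomerase P4hb, and Sel1l, the adaptor of the degradation complex. The share of all tested genes called lower was 2.14% and called higher 1.84%. The other 31 members were not called. The log2 change (PFOS minus control) was below 0 in 26 of 36 members, against 52.3% of all tested genes, and its median was -0.18 over members and -0.01 over all genes. At an unadjusted p under 0.05 there were 15 members lower and 1 higher by limma's two-sided test, where 10.9% of all genes were lower and 9.01% higher at that p.

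The groups were also compared by overlap. In 10 members every PFOS array lay below every control array, namely Hspa5, Hyou1, Dnajb11, Dnajc3, Sdf2l1, Creld2, Pdia3, P4hb, Ero1b and Sel1l, where 6.89% of all genes did so. The reverse order was found in 1 member, Sec61g, a small subunit of the Sec61 channel, where 5.91% of all genes did so. By single probe, 6 of the 42 member probes were called lower, against 2% of tested probes, because a second probe of Sdf2l1 was also called.

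**Figure D2:**
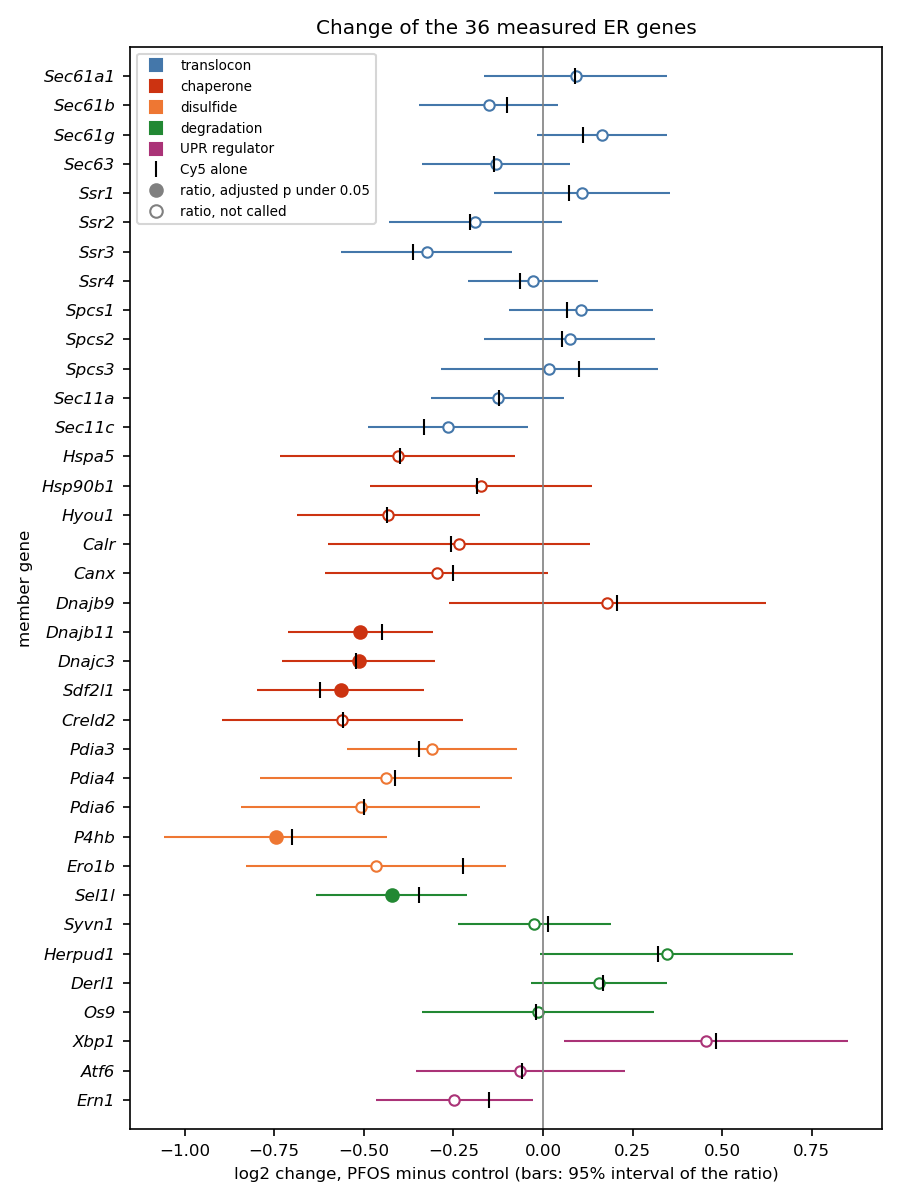
Log2 change (PFOS minus control, x axis) of the 36 measured members with 95% confidence intervals, coloured by role, 4 arrays a group; filled points are called in the ratio and black ticks give Cy5 alone. Chaperones and disulfide enzymes lie left of 0 except Dnajb9, while translocon genes lie on both sides of 0, from -0.32 to 0.17.

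The chaperones were the role with most calls. They bind unfolded chains directly or drive the cycle of BiP, and 10 of 11 were measured. Of these, 3 fell, none rose and 7 were not called, 9 lay below 0, and the median log2 change was -0.42 with a range of -0.56 to 0.18.

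Dnajb11 is a J-domain co-chaperone that brings unfolded chains to BiP. Its log2 ratios in controls 1 to 4 were 0.69, 0.38, 0.66 and 0.54, and in PFOS rats 1 to 4 they were 0.04, 0.03, -0.01 and 0.17. All 4 PFOS arrays lay below all 4 controls, and the PFOS values lay close together. The mean was 0.57 ± 0.14 (SD, n = 4) in controls and 0.06 ± 0.08 (SD, n = 4) with PFOS, a log2 change of -0.51 (SE 0.09, 1.42-fold lower, limma adjusted p = 0.0158). It was the only member called in the ratio without each array in turn, with changes of -0.57 to -0.47.

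Dnajc3, the J-domain protein also known as p58IPK, works with BiP in the lumen. Its control log2 ratios were 3.08, 2.89, 3.26 and 3.03 and its PFOS ratios 2.65, 2.46, 2.52 and 2.56. The groups did not overlap. The means were 3.06 ± 0.16 and 2.55 ± 0.08 (SD, n = 4 each), a log2 change of -0.51 (SE 0.09, 1.43-fold lower, limma adjusted p = 0.02). Leaving out any 1 array gave changes of -0.57 to -0.45, and the ratio call was lost without control 1, without PFOS 2 and without PFOS 3.

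Sdf2l1 forms a complex with Dnajb11 and helps keep chains soluble. The control log2 ratios were 0.67, 0.52, 0.86 and 0.47 and the PFOS ratios -0.05, 0.07, 0.20 and 0.03. Each PFOS value was below the lowest control. The log2 change was -0.56 (SE 0.10, 1.48-fold lower, limma adjusted p = 0.0199), and its second probe gave -0.80 (SE 0.12, adjusted p = 0.00814 over probes). Without control 1 or without PFOS 1 the gene was not called in the ratio, and leaving out any 1 array gave -0.62 to -0.49.

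BiP itself, the central ER chaperone encoded by Hspa5, had control log2 ratios of 1.45, 1.02, 1.01 and 1.10 and PFOS ratios of 0.76, 0.94, 0.38 and 0.88. The highest PFOS array stood just under the lowest control, and PFOS 3 was the lowest of all. The log2 change was -0.41 (SE 0.15, 95% interval -0.73 to -0.08), and it was not called (limma adjusted p = 0.168). Hsp90b1 (Grp94), the ER form of the Hsp90 chaperone, had control ratios of 0.89, 0.53, 0.53 and 0.20 and PFOS ratios of 0.46, 0.21, 0.38 and 0.41. The PFOS values lay within the range of the controls, and the change of -0.17 (SE 0.14) was not called (adjusted p = 0.522).

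The other chaperones were not called. Hyou1, an exchange factor that resets BiP, had a log2 change of -0.43 (adjusted p = 0.0744), and Creld2, an ER-resident protein induced by ER stress, one of -0.56 (adjusted p = 0.0768). In both, the groups did not overlap. Calreticulin (Calr) and calnexin (Canx), the lectins that hold glycoproteins during folding, had changes of -0.23 and -0.30. Dnajb9, another J-domain partner of BiP, was the member of this role above 0, at 0.18 (adjusted p = 0.655).

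In 3 chaperones the rows of the slide, each with 2 arrays a group, differed in sign. The change in row 1 and in row 2 was -0.61 and 0.14 for Calr, -0.37 and 0.03 for Hsp90b1, and 0.60 and -0.24 for Dnajb9. No direction is given for these genes.

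All 5 disulfide enzymes were measured and all 5 lay below 0, with a median log2 change of -0.47 and a range of -0.75 to -0.31. One of them, P4hb, fell, and the other 4 were not called. P4hb is protein disulfide isomerase, the abundant oxidant and isomerase of the ER. Its control log2 ratios were 1.74, 1.46, 1.40 and 1.12 and its PFOS ratios 0.84, 0.70, 0.45 and 0.74.

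Every P4hb value with PFOS was below every control value, with control 1 highest and PFOS 3 lowest. The means were 1.43 ± 0.26 and 0.68 ± 0.16 (SD, n = 4 each), and the log2 change of -0.75 (SE 0.14, 1.68-fold lower, limma adjusted p = 0.0202) was the largest fall among the members. When any 1 array was left out the change ran from -0.85 to -0.64, and the ratio call was lost without control 2, without control 3, without PFOS 2 and without PFOS 3. Among its relatives, Pdia6 had a change of -0.51 (adjusted p = 0.102), Pdia4 one of -0.44 (adjusted p = 0.166) and Pdia3, which serves calnexin and calreticulin, one of -0.31 (adjusted p = 0.146). Ero1b, the oxidase that recharges the isomerases, had a change of -0.47 in the ratio (adjusted p = 0.155) and -0.22 in Cy5 alone. Its probe was dim, with a mean log2 Cy5 signal of 7.06 in controls and 6.83 with PFOS. The ratio change ran from -0.73 to -0.31 over the alternatives.

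**Figure D3:**
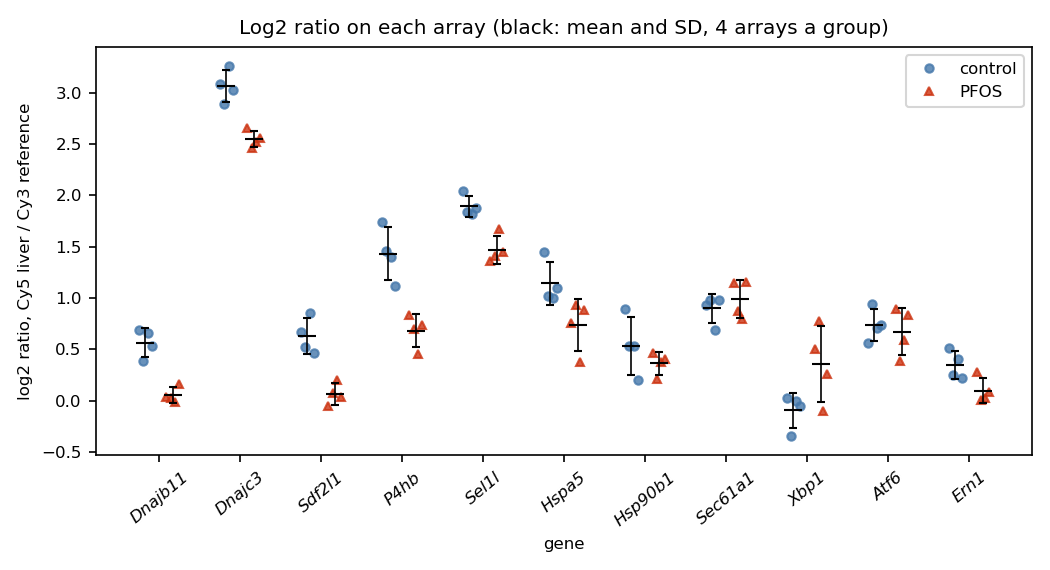
Log2 ratio of liver over reference RNA (y axis) on each of the 8 arrays for the members described array by array, with black marks for the mean and SD of 4 arrays a group. Dnajb11, Dnajc3, Sdf2l1, P4hb and Sel1l show no overlap of the groups, while Hsp90b1, Sec61a1, Xbp1, Atf6 and Ern1 do overlap.

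Array by array, the chaperone and disulfide members were lower with PFOS. Each array was summed up as the median, over a role's genes, of the deviation from the gene's control mean. For chaperones these medians were 0.06, -0.10, 0.01 and -0.04 in controls 1 to 4 and -0.39, -0.51, -0.48 and -0.30 in PFOS rats 1 to 4. For disulfide enzymes they were 0.22, -0.09, 0.04 and -0.17 against -0.51, -0.60, -0.44 and -0.39. All 4 PFOS rats thus stood below all 4 controls for the members of both roles. The members were chosen with earlier results of these data known. Other chaperones and other disulfide genes, outside the set, had smaller median log2 changes of -0.08 in each list.

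The translocon showed other values. Its 13 measured genes had array medians of 0.03, -0.02, -0.01 and 0.04 in controls and -0.01, -0.04, -0.11 and -0.02 with PFOS. The largest distance from the controls was on PFOS 3. The difference between roles was not tested, because the genes of a role are not replicates of the treatment.

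**Figure D4:**
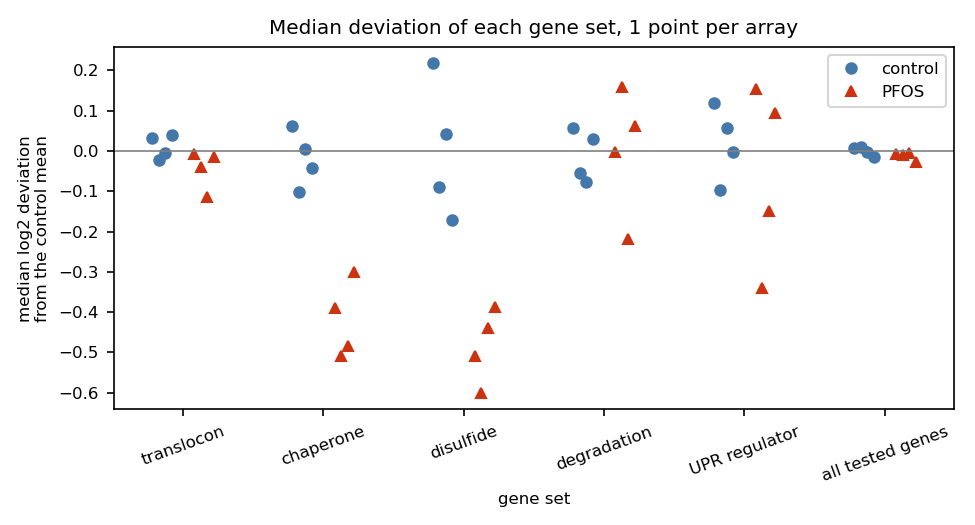
Median deviation from the control mean (log2, y axis) over the genes of each role, 1 point per array. The PFOS points lie at -0.51 to -0.30 for chaperones and -0.60 to -0.39 for disulfide enzymes, and at -0.11 to -0.01 for the translocon.

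Of the 13 measured translocon and signal peptidase genes none was called in either direction, with 2 at an unadjusted p under 0.05 by limma, both lower. Their median log2 change was -0.03, 7 of 13 lay below 0, and the range was -0.32 to 0.17. Sec61a1 forms the channel itself. Its control log2 ratios were 0.93, 0.99, 0.69 and 0.99 and its PFOS ratios 1.14, 0.87, 0.79 and 1.16, which overlap. The change was 0.09 (SE 0.11, 95% interval -0.16 to 0.35, limma adjusted p = 0.701).

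The small channel subunits went opposite ways in value, with Sec61b at -0.15 and Sec61g at 0.17. Sec63, which couples the channel to BiP, was at -0.13. The 4 subunits of the translocon-associated complex were at 0.11 (Ssr1), -0.19 (Ssr2), -0.32 (Ssr3, adjusted p = 0.132) and -0.03 (Ssr4). In signal peptidase, the catalytic subunits Sec11a and Sec11c were at -0.13 and -0.26, and the accessory subunits Spcs1, Spcs2 and Spcs3 at 0.11, 0.07 and 0.02. A second probe each for Ssr1 and Spcs2 had the opposite sign, at -0.17 and -0.15, so no direction is given for those genes.

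The degradation genes were mixed, with 1 of 5 measured members lower, none higher and a median log2 change of -0.01. Sel1l holds the ubiquitin ligase Syvn1 and hands substrates to it. Its control log2 ratios were 2.04, 1.84, 1.81 and 1.88 and its PFOS ratios 1.36, 1.41, 1.67 and 1.45. The groups did not overlap, and PFOS 3 was nearest to the controls.

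Sel1l changed by -0.42 (SE 0.09, 1.34-fold lower, limma adjusted p = 0.0423). Its call was the least stable of the 5, since of the 8 fits without 1 array only the fit without PFOS 3 kept it (changes of -0.49 to -0.37), and a second probe at -0.37 was not called (adjusted p = 0.0791). Its partner Syvn1 (Hrd1) had a change of -0.02, and the lectin Os9, which delivers glycoproteins, one of -0.01. Herpud1, a scaffold of the same complex, was at 0.35 (adjusted p = 0.262) and Derl1, a membrane component of the exit route, at 0.16 (adjusted p = 0.340).

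None of the 3 regulators was called, with 1 lower and 1 higher at an unadjusted p under 0.05 by limma. Xbp1 encodes the transcription factor whose message is spliced by Ern1. Its control log2 ratios were 0.03, -0.35, -0.00 and -0.05 and its PFOS ratios 0.50, 0.77, -0.10 and 0.27. PFOS 3 lay within the controls and the other 3 PFOS arrays above them.

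The Xbp1 change was 0.46 (SE 0.18, 95% interval 0.06 to 0.85), and it was not called (adjusted p = 0.194). It differed between the rows of the slide, at 0.80 in row 1 and 0.11 in row 2. Which spliced form the probe binds was not examined. Atf6, the sensor that becomes a transcription factor on cleavage, had control ratios of 0.56, 0.94, 0.71 and 0.73 and PFOS ratios of 0.89, 0.39, 0.59 and 0.83. Those groups overlapped, with a change of -0.06 (adjusted p = 0.824). A second Atf6 probe was at -0.23 and was not called either (limma adjusted p = 0.343 over probes).

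Ern1 (IRE1), the sensor kinase and RNase, had control ratios of 0.51, 0.25, 0.40 and 0.22 and PFOS ratios of 0.28, 0.01, 0.03 and 0.09. The groups overlapped by 1 PFOS array. Its change of -0.25 was not called (adjusted p = 0.203), and the probe was well above background on 3 control arrays and 1 PFOS array.

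In the Cy5 channel alone, which leaves the reference out, 4 members fell, Dnajb11, Dnajc3, Sdf2l1 and P4hb, and none rose. Of all genes 2.42% were called lower and 2.39% higher. The log2 changes were -0.45 for Dnajb11 (adjusted p = 0.0256), -0.52 for Dnajc3 (adjusted p = 0.0110), -0.62 for Sdf2l1 (adjusted p = 0.00765) and -0.70 for P4hb (adjusted p = 0.00901). Sel1l was at -0.35 (adjusted p = 0.0634). The median over members was -0.17, with 25 of 36 below 0. Without 1 array in turn, Dnajc3, Sdf2l1 and P4hb stayed called in all 8 Cy5 fits and Dnajb11 in 2.

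In the Cy3 channel, the same reference RNA on every array, no member was called, where 0.0789% of all genes were. At an unadjusted p under 0.05 by limma there was 1 member, Dnajb11, where 3.85% of all genes had such a p. Its Cy3 change was 0.08 (SE 0.02), beside -0.51 in the ratio and -0.45 in Cy5 alone. A rise in the reference adds to a fall in the ratio. The member changes in Cy3 ran from -0.04 to 0.08. All of them were well above background in Cy3 on all 8 arrays.

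All 8 arrays were on 1 slide, and each slide row held 2 control and 2 PFOS arrays. Within row 1 alone and within row 2 alone, the changes were -0.50 and -0.52 for Dnajb11, -0.43 and -0.60 for Dnajc3, -0.58 and -0.54 for Sdf2l1, -0.83 and -0.66 for P4hb and -0.56 and -0.29 for Sel1l. The direction was thus the same in both rows. With 4 arrays a row limma called no member in the ratio in either, with 12 members in row 1 and 8 in row 2 at an unadjusted p under 0.05. The share of all genes at that p in each row is not given, so no excess is read from these counts. With row as a block 4 members were called, and Sel1l was not (adjusted p = 0.0536).

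Each slide column held 1 control and 1 PFOS array, so the column as a block compared arrays within columns, with fewer residual degrees of freedom. It left no member called in the ratio (16 at an unadjusted p under 0.05 by limma) and 3 in Cy5 alone. Median centring in place of loess also left none called in the ratio (9 at an unadjusted p under 0.05 by limma). For both settings the share of all genes at that p is not given, so no excess is read from these counts. The changes themselves stayed close under median centring, at -0.50 for Dnajb11, -0.50 for Dnajc3, -0.53 for Sdf2l1, -0.69 for P4hb and -0.38 for Sel1l. Over the 23 alternatives run for the ratio, 13 to 14 of the 15 chaperone and disulfide genes lay below 0, with medians of -0.50 to -0.40. The translocon had 6 to 9 of 13 below 0 and medians of -0.12 to 0.02.

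Members with and without an element in the promoter window were set side by side. Of the 11 with an ERSE or ERSE-II, 9 lay below 0 and 2 were called lower (Dnajb11 and Dnajc3), with a median log2 change of -0.41 and a range of -0.56 to 0.46. Of 18 measured members whose window had no match, 12 lay below 0 and 3 were called lower (Sdf2l1, P4hb and Sel1l), with a median of -0.13. Both elements thus occurred in members on either side of 0, among them Herpud1 and Xbp1 above it. Outside the set, 13 tested genes had an element, of which 8 lay below 0, none was called lower and 1 higher (Zfand2a, a stress-induced zinc finger gene, 0.45, limma adjusted p = 0.0331), with a median of -0.03.

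Further genes of the same pathways were taken as 6 lists, with 163 of 199 genes tested. Of these, 4 fell and 1 rose, where 2.14% of all genes were called lower and 1.84% higher. In value 96 lay below 0, against 52.3% of all genes, and the median log2 change was -0.05. Groups without overlap were lower in 23 and higher in 11, where 6.89% and 5.91% of all genes were. By list, lower and higher, these were 7 and 1 of 29 for translocation and 4 and 0 of 25 for chaperones. They were 6 and 0 of 22 for thiol and disulfide genes, 3 and 2 of 38 for degradation, 3 and 7 of 33 for signalling and 0 and 1 of 16 for COPII. Among 29 other translocation genes, 8 were lower and 2 higher at an unadjusted p under 0.05 by limma. Over all genes 10.9% were lower and 9.01% higher at that p. In this list 1 gene fell, Tram1, a membrane partner of the channel (-0.46, SE 0.10, limma adjusted p = 0.0350). Its control log2 ratios were 2.38, 2.25, 2.58 and 2.53 and its PFOS ratios 2.08, 1.91, 2.03 and 1.88, with no overlap.

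Of 25 other chaperones none was called in the ratio, with 4 lower at an unadjusted p under 0.05 by limma. In value 22 of them lay below 0, with a median of -0.08. Over all genes 10.9% were lower and 9.01% higher at that p. Of 22 other thiol and disulfide genes, with 7 lower and none higher at that p, 1 fell, Vkorc1, the vitamin K epoxide reductase needed for clotting factors (-0.74, SE 0.16, adjusted p = 0.0411). Among 38 other degradation genes limma called none in the ratio, with 3 lower and 5 higher at an unadjusted p under 0.05, and their median was 0.01. None of 16 genes of the COPII coat, which carries cargo out of the ER, was called, with 2 lower and 4 higher at that p.

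The list of other genes of unfolded protein signalling went both ways, with 2 called lower and 1 called higher of 33 tested. Of all genes 2.14% were called lower and 1.84% higher. At an unadjusted p under 0.05 by limma 4 of its genes were lower and 10 higher, where 10.9% and 9.01% of all genes were. Groups without overlap were lower in 3 and higher in 7, where 6.89% and 5.91% of all genes were. The list was chosen with earlier results of these data known. Nupr1, a small stress-induced transcription regulator, had control log2 ratios of 0.59, 0.62, 0.72 and 0.60 and PFOS ratios of -0.10, -0.13, -0.03 and -0.04. It fell by 0.71 on the log2 scale (SE 0.07, limma adjusted p = 0.00139), and the groups were far apart for their spread. Atf5, a transcription factor of the stress response, changed by -0.54 (adjusted p = 0.0488).

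Bhlha15 (Mist1), a transcription factor of secretory cells and a known Xbp1 target, had control log2 ratios of 0.11, -0.77, 0.20 and -0.16 and PFOS ratios of 1.99, 1.91, 0.82 and 0.98. It rose by 1.58 (SE 0.31, limma adjusted p = 0.0258), with every PFOS array above every control and the row 1 PFOS rats highest.

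Markers of other liver cells were examined beside these falls, in 8 lists, and limma called none of them in the ratio. The hepatocyte list had 10 of 10 genes tested and 7 below 0, with mean log2 ratios per array of 6.20 to 6.48 in controls and 6.13 to 6.41 with PFOS, which overlap, and 3 genes at an unadjusted p under 0.05 (2 lower, 1 higher). Its summed Cy5 intensity was 1169400 to 1267060 in controls and 1090410 to 1153520 with PFOS, where all PFOS arrays lay below all controls. The sum is weighted to the brightest genes. Gene by gene in Cy5 alone, 4 of the 10 lay below 0, with a median change of 0.03. In Cy5 alone its gene Apoa1, an abundant apolipoprotein, was called lower at -1.79. Its change in the Cy3 reference channel was -1.38, the lowest of all tested genes, and 1 gene of this list was called in Cy3. The reference is the same RNA on every array, so the Apoa1 Cy5 value is not read as a liver change. In the ratio Apoa1 was at -0.38 and not called (limma adjusted p = 0.116). In the Kupffer cell list, 9 of 10 tested genes lay below 0 with a median of -0.24 (1 at an unadjusted p under 0.05), and array means were 3.63 to 4.44 against 3.34 to 4.33 (summed Cy5 38128 to 63349 against 32304 to 52822). In the endothelial list all 6 tested of 10 lay below 0 with a median of -0.40 (2 at that p), and array means were 2.96 to 3.78 against 2.82 to 3.29 (summed Cy5 7339 to 13256 against 5739 to 8116).

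The stellate list had 6 of 9 tested genes below 0 (1 lower and 1 higher at that p), with array means of -0.71 to -0.51 in controls and -0.92 to -0.66 with PFOS. The cholangiocyte list had 0 of 6 below 0 (2 higher at that p), the B and plasma cell list 2 of 5, the T and NK cell list 5 of 7 and the pancreatic acinar list 1 of 3, with none at that p in these last 3. Of the B and plasma cell list, Jchain, Cd79a, Ms4a1, Prdm1 and Irf4 were not tested. The part of these cells in the falls of the folding genes was not tested.

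The arrays differed in Cy5 brightness between the slide rows. Median Cy5 signals were 116 to 160 over backgrounds of 71 to 75, 50.3% to 59.1% of probes were well above background, and no spot was saturated. Row 1 was brighter than row 2, with median Cy5 signals of 154.5 to 160 against 116 to 138. The lowest were PFOS 3 (116), PFOS 4 (119) and control 4 (122). Correlations of log2 ratios were 0.980 to 0.984 among controls, 0.973 to 0.982 among PFOS arrays and 0.958 to 0.974 between groups. Over all genes 606 were called, 280 higher and 326 lower. Precision is limited by how many arrays there are, with a median SE of 0.11 for a log2 change.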

How the data were processed

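Liver RNA of 4 control and 4 PFOS rats was measured on 2-colour Agilent arrays, with groups taken from the labels, which name separate animals. P-values therefore measure the spread between these rats. Replicate numbers follow accession order and pair nothing. The authors deposited each array's spot intensity as median signals and local backgrounds on a linear scale, made with Agilent Feature Extraction 10.7.3.1 according to the headers and the submitters' processing notes. Mean signals had been planned, and medians were used because the files hold those. An alternative used log2 ratios from the authors' deposited value table. Its columns correlated at 0.995 to 0.997 (slopes 0.989 to 0.993) with the loess ratio without background subtraction, which gave its scale and direction. Its medians per array, for controls 1 to 4 and PFOS 1 to 4, were -0.048, -0.0539, -0.0518, -0.0568, -0.0518, -0.0609, -0.061 and -0.0527, and its centring is unknown.

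Background correction used normexp (offset 50). Loess within arrays gave control spots a weight of 0. Outlier spots (733 to 991 per array) were left out and the spots of a probe averaged. A probe had to be well above background in Cy5 on 4 or more arrays. Each gene was read from its brightest probe in Cy5, which can matter where probes disagree. Of 30367 probes, 18004 were matched to a symbol through RefSeq accessions (GRCr8). Coordinates are printed only for promoters and their elements, from RefSeq (GRCr8). None are taken from the arrays, whose grid uses an older build. Cy5 and Cy3 alone were quantile normalized. Groups were compared with limma 3.58.1 in R 4.3.3 (lmFit, eBayes, two-sided), with Benjamini-Hochberg adjustment over all 15200 genes and features. Other packages were jsonlite 2.0.0 and data.table (1.17.8). "Called" means adjusted p under 0.05. The fit was tested on simulated data.

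The members and all lists were chosen with earlier results of these data known. All members are named. Values per array are given for members called in the ratio or in Cy5 and for Hspa5, Hsp90b1, Xbp1, Atf6, Ern1 and Sec61a1, and other lists are given by counts and up to 3 called genes with the smallest p. Derl3, Ppib, Trib3, Tusc3, Retreg1, Cebpb and Zfand2a were chosen after their values were seen. In all, 25 alternatives were run, covering background, normalization, filters, probe choice, eBayes options, slide position and each array left out.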

Additional observations from a re-analysis of the deposited data

Results flagged for a closer look

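Of 72 groups of 4 arrays examined (36 members in each group), 3 held an array that stood far from the other 3 by Dixon's gap test, and chance alone marks about 1 in 20 groups. Sec61b, a channel subunit, was 1.15 on control 4, below the other controls at 1.26 to 1.28. Dnajb9, a partner of BiP, was 2.44 on control 4, above the other controls at 1.81 to 1.90. Os9, a lectin of the degradation route, was 1.50 on control 1, above the other controls at 0.92 to 1.00. All values are log2 ratios, and none of these genes was called between groups.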

How the results depend on the processing

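The median log2 change of the members stayed below 0 in every alternative run, at -0.21 to -0.14 in the ratio and -0.21 to -0.12 in Cy5 alone, and no called member changed sign. Calls moved more. Of the 606 genes called in the ratio, counts were 239 with median centring, 268 with the slide column as a block, 93 in row 1 alone and 32 in row 2 alone. Member genes called in the ratio went from 5 to 0 under each of these 4 settings and to 3 with scaling between arrays, and called member probes from 6 to 1 with median centring and to 0 under the other 3. Member genes called in Cy5 alone went from 4 to 2 with processed signals, 1 with median scaling and 0 in either row alone. Rows alone have 4 arrays each, which leaves 2 residual degrees of freedom. Without 1 array in turn, 350 to 519 genes, 2 to 5 member genes in the ratio, 3 to 6 in Cy5 alone and 3 to 6 member probes were called. The fewest ratio member calls came without control 1 and without PFOS 2 (2 each). Of the uncalled members, Ssr1, Ssr4, Spcs2, Spcs3, Hsp90b1, Calr, Dnajb9, Syvn1, Os9 and Atf6 changed sign under some setting in at least 1 channel. For Hsp90b1, Calr and Dnajb9 this was in 1 slide row alone. The cause of these differences was not tested. Dim probes limit what can be said of Ern1 and Ero1b. Rats could not be paired by label, because the labels give no shared replicate numbers, and arrays were matched by position only in the column block.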

Other observations

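Some genes of the same pathways had large changes in value without a call in the ratio. Derl3, a Derlin of the ER exit route, had control log2 ratios of -0.78, -0.47, 0.93 and 0.78 and PFOS ratios of -1.59, -1.04, -0.95 and -1.40. All PFOS arrays lay below all controls, and the controls were widely spread, with row 2 controls higher. Its log2 change was -1.36 (SE 0.37, limma adjusted p = 0.0847), and its promoter window also holds an element.

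Ppib, an ER prolyl isomerase that helps fold collagen, had control log2 ratios of 1.34, 0.59, 0.93 and 0.49 and PFOS ratios of 0.19, 0.32, 0.26 and 0.25. It was called lower in Cy5 alone (-0.58, limma adjusted p = 0.0422) and not in the ratio (-0.58, adjusted p = 0.0987). Trib3, a pseudokinase induced by ER stress, was at 0.93 (adjusted p = 0.0663). Rises of like size without a call were also found in Tusc3 of the translocation list (0.96, limma adjusted p = 0.0602). The same held for Retreg1 of the degradation list (0.92, adjusted p = 0.168) and Cebpb of the signalling list (0.86, adjusted p = 0.0719). In the Cy3 reference channel Tusc3 changed by -0.25 and Cebpb by -0.14.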
